A study of Mus musculus with 8 samples.

Results

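Complement is a cascade of blood and tissue proteins that tags cells, debris and immune complexes for uptake, and its genes are transcribed in adipose tissue as well as in the liver. The 9 complement genes described here are C1qa, C1qb, C1qc, C2, C4b, C3, Cfb, C3ar1 and C5ar1. They were taken by exact gene symbol from a table of 31854 rows, and each had 1 row. All 9 passed the filter on low counts, which kept 15667 rows. RNA was sequenced from whole epididymal white adipose tissue, the fat pad attached to the male gonad, of mice that had all been kept on a high-fat diet. One group was wild type (WT, replicates 1, 2, 3 and 5) and the other carried S273A, a knock-in allele of the nuclear receptor PPAR-gamma with alanine in place of serine 273 (replicates 2, 3, 4 and 6), giving 4 libraries per genotype. The labels give the S273A mice no other allele and no drug, and strain, age, length of feeding and zygosity of the allele were not stated in them. A change of a single codon leaves no mark on a count, so the genotype labels could not be checked from these values.

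In the classical pathway, C1q binds its target, and the proteases that travel with it cut C4 and then C2, whose fragments together form an enzyme that cleaves C3. In the alternative pathway factor B, the product of Cfb, takes the place of C2 once factor D, the adipose protease also called adipsin, has cut it. Cleavage of C3 and C5 releases the small peptides C3a and C5a, which act on the receptors encoded by C3ar1 and C5ar1. In tissues C1q comes mainly from macrophages, which gather in this depot during obesity, and C3a fragments and factor D have long been studied as products of fat.

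Total counts ran from 14880239 to 18194889 per library, and the 9 complement genes together took between 0.612% and 0.68% of them. Levels are given as normalised CPM, counts scaled to the corrected size of each library and comparable between libraries. Marker lists were read beside the complement genes. All 12 adipocyte markers were tested, with summed levels of 6985 to 10870 CPM (WT) and 8193 to 10570 CPM (S273A), and all 18 macrophage markers, at 6994 to 9104 CPM and 6644 to 7855 CPM. Markers of epididymis and testis summed to at most 1.34 CPM and markers of hepatocytes to at most 1.67 CPM in any library, with the hepatocyte gene Fgb at 0 counts in all 8 libraries. Both highest sums were in S273A replicate 2, where Adam7, an epididymal gene, had 20 counts against 0 in the other 7 libraries and Alb, the albumin gene, 29 against 7 to 13. WT replicate 2 and S273A replicate 2 stood at opposite ends of the macrophage score, the mean centred log2 level of the macrophage list (0.116 and -0.195). They were also at opposite ends of the adipocyte score (-0.398 and 0.3). In bulk tissue, fewer cells of a type and less RNA per cell cannot be told apart.

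The positions of the genes matter for how their reads can be counted. On GRCm38, the assembly that mm10 names, C1qb (chromosome 4, 136880129 to 136886187), C1qc (136889804 to 136893065) and C1qa (136895917 to 136898803) lie next to each other on the minus strand, with gaps of 3616 and 2851 bases. Chromosome 17 holds C4b (34728380 to 34743882), its near copy C4a (34809092 to 34823464), Cfb (34856374 to 34862518) and C2 (34862604 to 34898265), all on the minus strand and with only 85 bases between Cfb and C2. C3 (57203970 to 57228136) lies on the same chromosome farther along. C3ar1 is on chromosome 6 (122847138 to 122856161), 237.1 kb from Gdf3, and C5ar1 on chromosome 7 (16246743 to 16259540). Gdf3, which encodes a secreted TGF-beta family member, had the smallest p of all rows, with a log2 fold change of -2.14 that did not pass (edgeR adjusted p = 0.646).

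For C4b and C4a the question is whether paired reads of 36 bases can tell the copies apart. Their transcripts were 96.1% identical over 5367 aligned bases, and 44.8% of all 36-base stretches of the C4b transcript also occurred in C4a. The 60 bases below lie in exon 21 of 41 of each gene, at chr17:34735430-34735489 for C4b and chr17:34816086-34816145 for C4a (GRCm38, minus strand). They are shown because they are a stretch in which the copies differ at 13 bases, marked by capitals, so that reads from there can be assigned.
C4b: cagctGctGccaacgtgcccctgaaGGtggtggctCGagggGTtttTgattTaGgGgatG
C4a: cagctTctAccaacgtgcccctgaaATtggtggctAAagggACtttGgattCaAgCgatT
C4b held 13992 to 19588 counts per library and C4a 118 to 167, so that C4b took 99.02% to 99.32% of the counts of the pair. How the authors treated reads matching both copies was not stated, so the small C4a values are the less certain ones. A second overlap concerns Cfb and C2: the annotated read-through gene Gm20547 runs over both on the same strand and shares 79.5% of the exon bases of Cfb and 42.8% of those of C2. The deposited table has separate rows for Cfb and C2. C2 also overlaps Zbtb12 on the opposite strand, and the cDNA carried no strand marks, so strand cannot separate reads from that overlap. C1qa, C1qb, C1qc, C3 and C5ar1 shared no 36-base stretch with another annotated gene, and C3ar1 shared 0.211% of its stretches.

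Among the proximal promoters, sequences for 5 of the 9 genes (C1qb, C1qc, C3, C3ar1 and C5ar1) were matched in the RefSeq set for GRCm38.p6. C1qb and C1qc are shown because their levels moved together over the libraries, as given further on. The C1qb window holds the 250 bases before its RefSeq start, chr4:136886201-136886450, and the C1qc window the 99 bases chr4:136893066-136893164 that precede the annotated first exon, both on the minus strand and written 5′ to 3′. Capitals mark matches to the motifs searched.
C1qb: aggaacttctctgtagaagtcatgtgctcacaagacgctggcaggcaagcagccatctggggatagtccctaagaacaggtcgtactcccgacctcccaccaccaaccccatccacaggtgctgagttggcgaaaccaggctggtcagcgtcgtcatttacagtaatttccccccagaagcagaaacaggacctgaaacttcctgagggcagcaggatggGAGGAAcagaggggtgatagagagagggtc
C1qc: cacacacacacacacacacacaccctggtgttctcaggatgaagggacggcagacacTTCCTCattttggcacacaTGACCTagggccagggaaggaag
Both strands of the 250 bases before each RefSeq start were searched for 6 short motifs. In C1qc, 151 of these bases lie in the annotated first exon, so its distances count from a start inside that exon. GAGGAA, the core bound by the myeloid factor PU.1, occurred in 23.3% of all 32851 promoter windows of this length; it began 30 bases before the C1qb start and, on the other strand, 193 bases before the C1qc start. AGGTCA, the core recognised by many nuclear receptors, occurred in 14.0% of all windows; it was found in C1qc (antisense, beginning 174 bases before the start) and in C3 (sense, 243 bases before). TTGCNNAA, a C/EBP core (9.56% of windows), began 45 bases before the C3 start. GAAANNGAA, an interferon response core (7.13% of windows), was found in C5ar1, antisense, 66 bases before the RefSeq start. That window (chr7:16259339-16259588) lies mostly inside the annotated C5ar1 gene, which reaches to 16259540, and so does the match. The Maf core TGCTGAC (3.81% of windows) and the NF-kB core GGANTTTCC (1.07% of windows) matched none of the 5 windows, and C3ar1 held none of the 6. No 2 of these matches overlap, and a match is a description of the letters only.

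Levels were compared between genes per kilobase of the deposited feature length, over all 8 libraries. C3 was the most abundant at 631.9 ± 26.79 CPM per kilobase (SD, n = 8). Among the rows that passed the filter it ranked 28th on this scale and 10th by CPM, and it took 0.324% of all counts. C1qb followed at 557.2 ± 45.64 and C1qc at 330.8 ± 26.05 CPM per kilobase. C1qa (157.5 ± 22.1), C4b (155.5 ± 8.171) and Cfb (140.3 ± 14.97) formed a middle group. C3ar1 (98.35 ± 11.97), C5ar1 (70.27 ± 9.789) and C2 (39.96 ± 6.119) were the lowest. Of the 36-base stretches of C4b, 44.8% also occur in C4a, and 81.5% of those of Cfb and 59.3% of those of C2 occur in Gm20547. How such reads were counted was not stated, so the places of C4b, Cfb and C2 in this order are less certain.

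Neighbours in this order were not all separated. The ranges of C3 and C1qb overlapped, with C3 higher in 7 of 8 libraries, and so did those of C1qa and C4b (C1qa higher in 6 of 8), C4b and Cfb (7 of 8) and Cfb and C3ar1 (7 of 8). C1qb and C1qc, C1qc and C1qa, C3ar1 and C5ar1, and C5ar1 and C2 did not overlap in any library. The spread over the 8 libraries was smallest for C3, with a coefficient of variation of 4.24% and a highest level 1.11 times the lowest. C2 had the largest coefficient of variation, 15.3%, and C1qa the widest range, with a highest level 1.65 times the lowest.

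**Figure D1:**
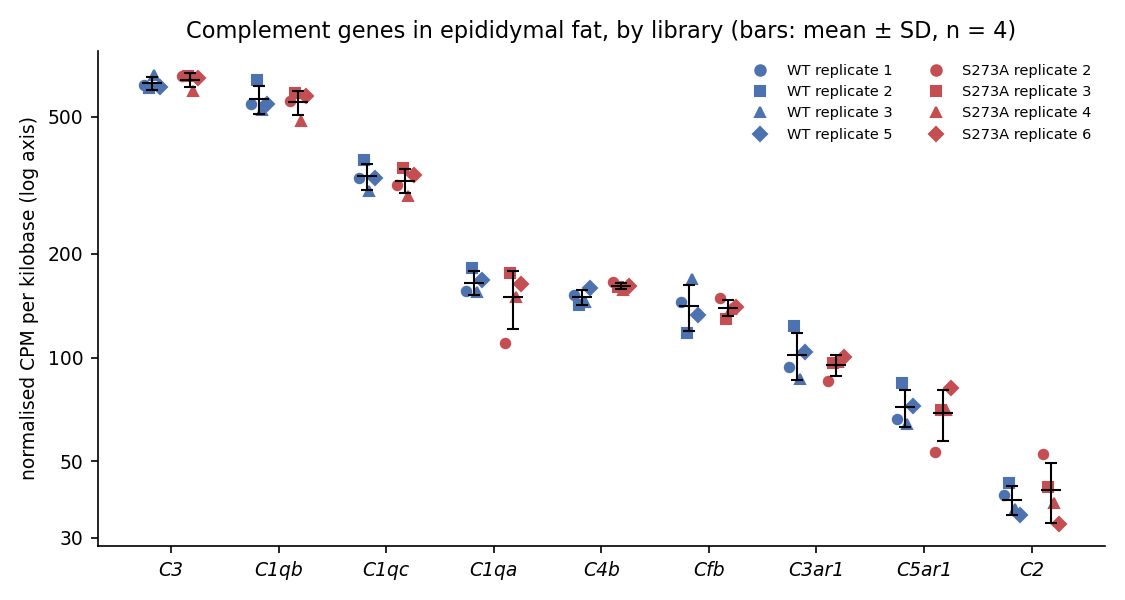
Normalised CPM per kilobase (log axis) of the 9 complement genes, ordered by mean level; each point is a library, blue for WT and red for S273A, and bars give mean ± SD over 4 libraries. The points of the 2 genotypes overlap for every gene, and S273A replicate 2 (red circle) is the lowest point of C1qa (110 CPM per kilobase) and the highest of C2 (52.39).

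The comparison of genotypes asked whether the complement genes differ in this depot when serine 273 of PPAR-gamma cannot be phosphorylated. None of the 9 genes was called at an adjusted p under 0.05 by edgeR's quasi-likelihood test, and none of the 15667 rows tested was (0%). At an unadjusted p under 0.05 it was 0 of 9 genes against 229 rows (1.46%), and genotypes without overlap in CPM occurred in 0 of 9 genes against 186 rows (1.19%). With 9 genes, shares of that size are too low to tell a count of 0 from the rest of the table. Log2 fold changes of S273A over WT were above 0 for C2, C3 and C4b and below 0 for the other 6, between -0.14 and 0.11, with a median of -0.03; over all tested rows the median was 0.0015 and 50.7% were above 0. DESeq2 and limma-voom called none of the 9 either, and DESeq2 gave 1 of them, C4b, an unadjusted p under 0.05. The labels do not say whether each library came from its own mouse, so these p-values reflect the spread among libraries, part of which may be technical.

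C1qa encodes the A chain of C1q. It was at 168.6, 196.7, 167.1 and 182.1 CPM in WT (replicates 1, 2, 3 and 5) and at 119.1, 190.9, 162.5 and 176.5 CPM in S273A (replicates 2, 3, 4 and 6). Only S273A replicate 2 stood clear of the rest, and the other 3 S273A libraries lay within or just below the WT range. The estimated log2 fold change was thus -0.14, with an SE of 0.13 and a 95% confidence interval of -0.43 to 0.15, and -0.02 without S273A replicate 2.

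C1qb and C1qc encode the B and C chains. C1qb was at 579.1, 679.9, 554.2 and 579.9 CPM in WT and at 588.6, 624.1, 517.2 and 610.6 CPM in S273A. C1qc was at 349.5, 393.4, 320.5 and 351 CPM in WT and at 334.3, 374.5, 309.4 and 356.4 CPM in S273A. For both chains WT replicate 2 was the highest library, S273A replicate 4 the lowest, and S273A replicate 2 lay in the middle. Their log2 fold changes were -0.03 (95% confidence interval -0.22 to 0.16) and -0.04 (-0.22 to 0.14). Without WT replicate 2 they turned to 0.03 and 0.01.

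C4b and C2 encode the substrates that C1q-bound proteases cut. C4b was at 998.6, 937.3, 957.2 and 1051 CPM in WT and at 1092, 1055, 1038 and 1058 CPM in S273A. Of the 4 S273A libraries, 3 were above every WT library, and replicate 4 fell below WT replicate 5. On the log2 scale the difference was 0.11, with an SE of 0.06 and a 95% confidence interval of -0.04 to 0.25, a fold of 1.08 (0.976 to 1.19), with an edgeR unadjusted p of 0.126 and an adjusted p of 1. DESeq2 gave C4b an unadjusted p of 0.0413, the smallest of any of the 9 genes under any of the settings tried, while no setting brought an adjusted p of the 9 below 0.999.

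C2 was at 105.4, 114.5, 95.85 and 92.59 CPM in WT and at 138.5, 111.2, 100.1 and 87.13 CPM in S273A. S273A replicate 2 was again the library that stood apart, here as the highest, while S273A replicate 6 was the lowest of all 8. The fold on the log2 scale was 0.10 (95% confidence interval -0.20 to 0.39), and it turned to -0.04 without S273A replicate 2.

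C3, on which all routes of activation meet, was at 3184, 3122, 3405 and 3138 CPM in WT and at 3372, 3380, 3054 and 3323 CPM in S273A. The highest library was WT replicate 3 and the lowest S273A replicate 4. The log2 difference was 0.03 (SE 0.07), with a confidence interval for the fold of 0.91 to 1.15.

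Cfb, the protease subunit of the alternative route, was at 399.3, 323.3, 463.1 and 365.5 CPM in WT and at 407.9, 356.7, 381.4 and 385.9 CPM in S273A, so all S273A libraries lay within the WT range. Its log2 fold change of -0.02 (95% confidence interval -0.25 to 0.21) turned to 0.08 without WT replicate 3. Cfd, which encodes the factor D that activates factor B, was at 182.4 to 205 CPM in WT. In S273A it was at 497 CPM in replicate 2 and at 134.9 to 188.3 CPM in the other 3, and its log2 fold change of 0.36 (edgeR adjusted p = 1) turned to -0.21 without replicate 2.

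The peptide receptors lie downstream of these proteins. C3ar1, the receptor of C3a, was at 402.3, 531.4, 372.6 and 445.2 CPM in WT and at 367, 414.3, 417.1 and 432.5 CPM in S273A. C5ar1, the main receptor of C5a, was at 170.4, 216.4, 164.4 and 186.1 CPM in WT and at 136.5, 181.3, 180.6 and 209 CPM in S273A. WT replicate 2 was the highest and S273A replicate 2 the lowest library for both. The log2 fold changes were -0.10 (95% confidence interval -0.34 to 0.14) for C3ar1 and -0.06 (-0.35 to 0.23) for C5ar1, and both turned to just above 0 without WT replicate 2 (0.0032 and 0.03).

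**Figure D2:**
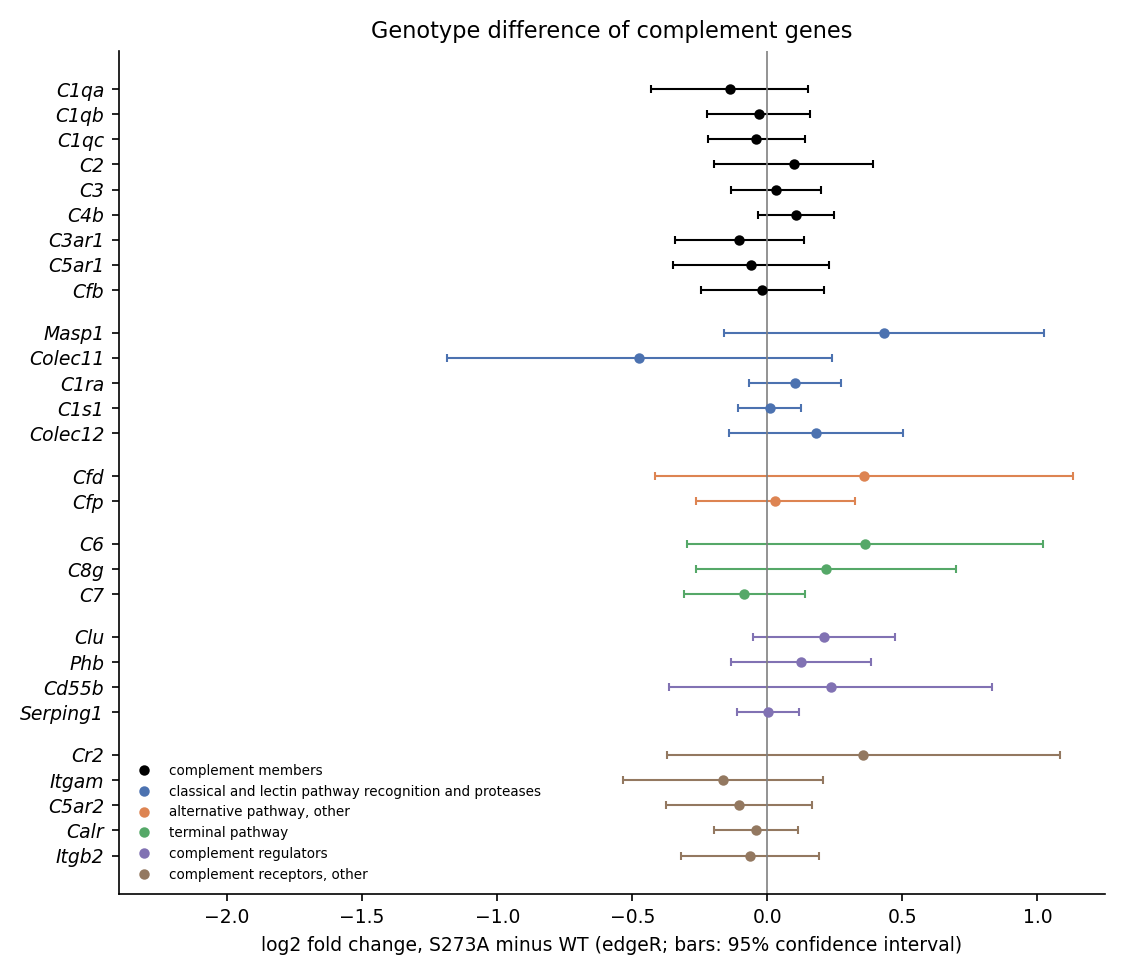
Log2 fold change of S273A over WT with its 95% confidence interval from edgeR, for the 9 complement genes (black) and the named genes of 5 further complement lists (colours). Every interval crosses 0; those of the 9 genes lie between -0.43 and 0.39, and that of Colec11 reaches down to -1.19.

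A further 46 complement genes were listed by role; 45 had a row and 36 were tested. None was called, none had an unadjusted p under 0.05 (1.46% of all tested rows did) and none had genotypes without overlap. Log2 fold changes were above 0 for 22 and below 0 for 14, with a median of 0.006.

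Of the recognition molecules and proteases of the classical and lectin pathways, 9 were tested (7 higher, 2 lower, median log2 fold change 0.03). C1s1 and C1ra, the proteases that C1q carries, had WT levels of 200 ± 9.891 and 48.39 ± 3.674 CPM and S273A levels of 201.3 ± 5.612 and 51.97 ± 4.232 CPM (SD over 4 libraries, as for all levels given so from here). The scavenger receptor collectin Colec12 was at 132.5 ± 17.9 and 150.1 ± 31.33 CPM. Masp1, a protease of the lectin pathway, and the collectin Colec11 had the largest estimates, 0.43 and -0.47 on the log2 scale, at only 21 to 49 and 11 to 27 counts per library. Mbl2, a mannose-binding lectin made in the liver, had 0 counts throughout.

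In the alternative pathway properdin, the stabiliser encoded by Cfp, had levels of 141.9 ± 14.68 CPM (WT) and 144.9 ± 26.26 CPM (S273A). Of 7 terminal pathway genes, which form the membrane attack pore, 4 were tested, with 2 estimates on each side of 0. C7 was the most abundant of those named, at 156.9 ± 22.33 CPM (WT) and 148 ± 10.29 CPM (S273A). C6 was at 32.62 ± 13.28 and 41.76 ± 9.683 CPM, and C8g, the gamma chain of C8, at 1.943 ± 0.449 and 2.265 ± 0.4173 CPM. C8a, C8b and C9 did not pass the filter, and C8b had 0 counts in all libraries.

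Of the genes listed as complement regulators, 13 of 15 were tested (9 higher, 4 lower, median 0.003). Serping1, the inhibitor of C1 proteases, was among the steadiest, at 349.7 ± 6.951 CPM (WT) and 350.4 ± 12.99 CPM (S273A), with a confidence interval for the fold of 0.926 to 1.08. Clusterin, the chaperone encoded by Clu that also binds the terminal complex, had the smallest edgeR unadjusted p of the 36 genes (0.104; adjusted p = 1), at 71.07 ± 8.766 and 82.19 ± 12.23 CPM. Its log2 fold change of 0.21 became 0.10 without S273A replicate 2. Phb and Cd55b had log2 fold changes of 0.12 and 0.23, or 0.04 without WT replicate 2 and 0.08 without WT replicate 3. The level of Cd55b was low, at 0.7749 ± 0.2308 CPM (WT) and 0.922 ± 0.1441 CPM (S273A). Of the 8 genes listed as other complement receptors, among them single receptor chains and the chaperone gene Calr, 2 were higher and 6 lower, with a median of -0.05. Itgam and Itgb2, the chains of complement receptor CR3 on myeloid cells, had log2 fold changes of -0.16 and -0.06, and C5ar2, the other C5a receptor, of -0.10. Itgam moved to -0.02 without S273A replicate 2 and C5ar2 to -0.01 without S273A replicate 4. Cr2, the B cell receptor for C3 fragments, had one of 0.35 with a confidence interval of -0.37 to 1.08, and of 0.09 without S273A replicate 3.

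The chains of C1q enter the protein in equal number, so the ratios of their counts were compared within each library, which removes any effect of library scaling. The ratio of C1qc to C1qb lay between 0.568 and 0.605 in all 8 libraries (WT 0.592 ± 0.015, S273A 0.588 ± 0.015, SD over 4 libraries). The ratio of C1qa to C1qb was 0.291, 0.289, 0.302 and 0.314 in WT. In S273A it was 0.202 in replicate 2, with a 95% counting interval of 0.193 to 0.212, and 0.306, 0.314 and 0.289 in the others. C1qa was therefore low against both other chains in 1 library of the 8, while C1qb and C1qc kept their ratio there.

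No ratio differed between genotypes by an exact two-sided permutation test (p = 0.714 for C1qa to C1qb, 0.686 for C1qc to C1qb, 0.657 for C1qa to C1qc and 0.743 for C3ar1 to C5ar1, each 0.743 after Benjamini-Hochberg adjustment over the 4 ratios). The smallest p that 4 against 4 libraries can give is 0.0286. The ratio of C3ar1 to C5ar1 counts averaged 2.369 ± 0.07875 (WT) and 2.338 ± 0.2572 (S273A, SD over 4 libraries), and it was highest in S273A replicate 2 (2.688) and lowest in S273A replicate 6 (2.069).

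**Figure D3:**
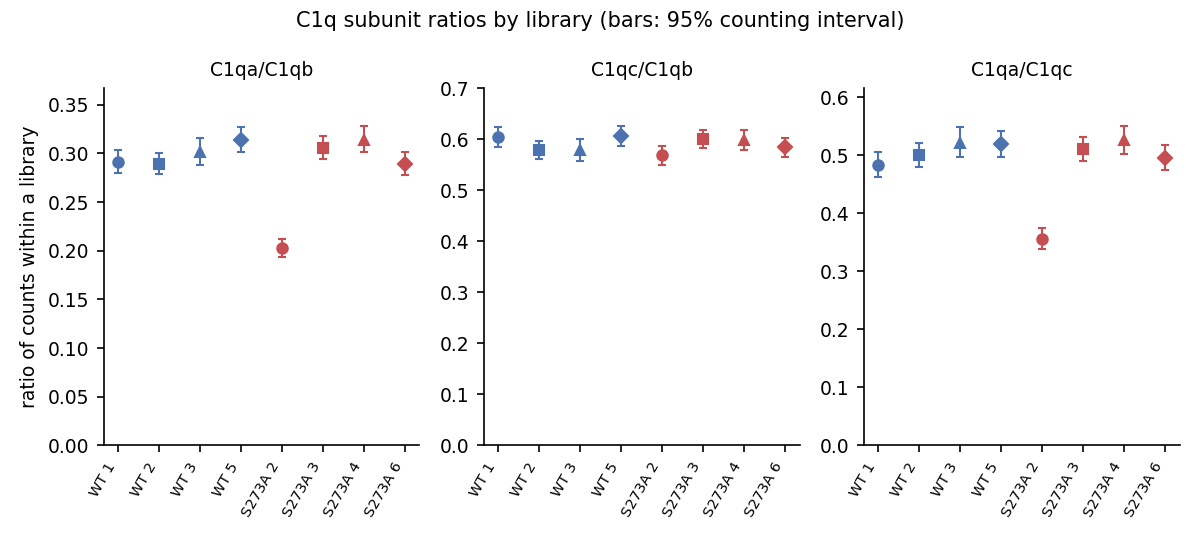
Ratio of counts of C1qa to C1qb, C1qc to C1qb and C1qa to C1qc in each library (vertical axes start at 0; blue WT, red S273A); bars are 95% intervals from counting error only. S273A replicate 2 is the single low point in both panels with C1qa, at 0.202 and 0.356, and lies with the others for C1qc to C1qb.

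Levels were then followed over the 8 libraries without regard to genotype. Each of the 9 genes was set against the scores of 4 marker lists that hold no complement gene, 36 relations in all, with exact permutation p-values over all pairings and Benjamini-Hochberg adjustment. Pearson's r of C1qa with the macrophage score was 0.947 and Spearman's rho 0.905 (exact permutation p = 0.000595 and 0.00456, adjusted 0.0214 and 0.0652). It was the 1 relation of the 36 with an adjusted p under 0.05. It was 0.939 with both measures centred within genotype (adjusted p = 0.0903, permuted within genotype) and 0.797 without S273A replicates 2 and 4, the libraries farthest from the median score (adjusted p = 0.222). Both settings allow too few orders of the libraries for 1 relation alone among 36 to reach an adjusted p under 0.05. These adjusted p-values therefore cannot decide whether the relation weakened, and the last rests on only 6 libraries.

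C5ar1 and C3ar1 had r of 0.876 and 0.705 with the macrophage score, and C1qc and C1qb of 0.661 and 0.557. C2, C4b and Cfb had negative r with it (-0.556, -0.566 and -0.463), and C3 was at -0.133; none of these had an adjusted p under 0.05 by the exact permutation test. Against the adipocyte score the C1q chains and both receptors were all negative, from -0.789 for C1qa to -0.884 for C1qc, while Cfb had r = 0.807 (rho 0.786). The exact permutation p-values of these 6 relations were 0.0643 to 0.0649 after adjustment of r. With the progenitor and fibroblast score, C2 had r = -0.826 and rho = -0.81 (adjusted exact permutation p = 0.0643 and 0.112). No relation to that score or to the mesothelial score had an adjusted p under 0.05. Without S273A replicate 2, r with the macrophage score went to 0.847 for C1qa (adjusted exact permutation p = 0.0714), 0.68 for C5ar1 and 0.95 for C1qb, and r with the adipocyte score went to -0.938 for C1qb and -0.934 for C1qc (each adjusted exact permutation p = 0.0405). The marker scores share libraries with each other and sum to parts of the same tissue, and the part of any single cell type in these values was not tested.

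**Figure D4:**
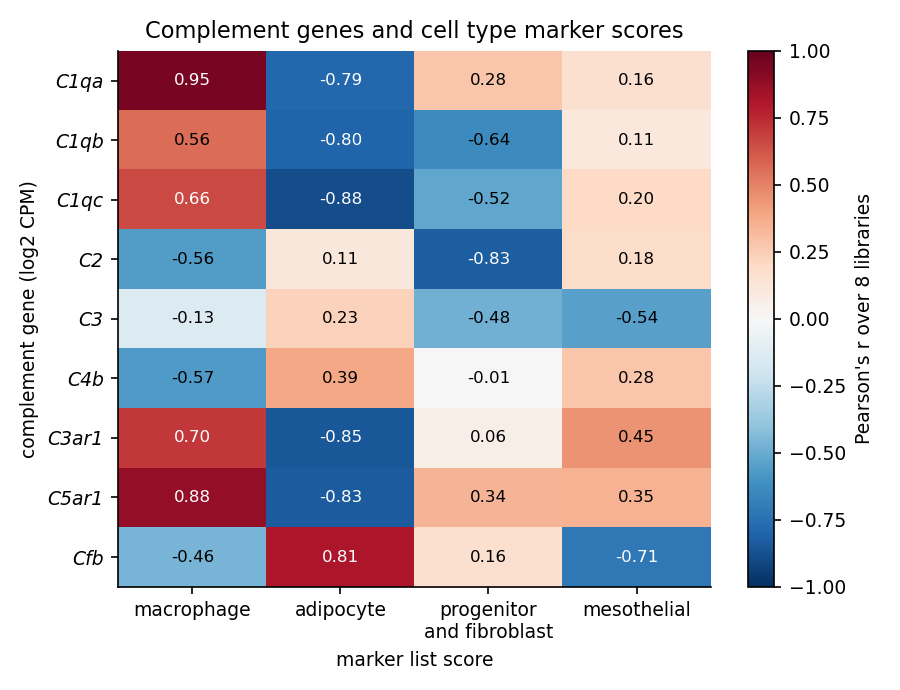
Pearson's r over 8 libraries between the log2 CPM of each complement gene (rows) and the score of each marker list (columns), with red for positive and blue for negative values. The C1q chains and the receptors are red for macrophage and blue for adipocyte markers, and Cfb has the opposite signs (-0.46 and 0.81).

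**Figure D5:**
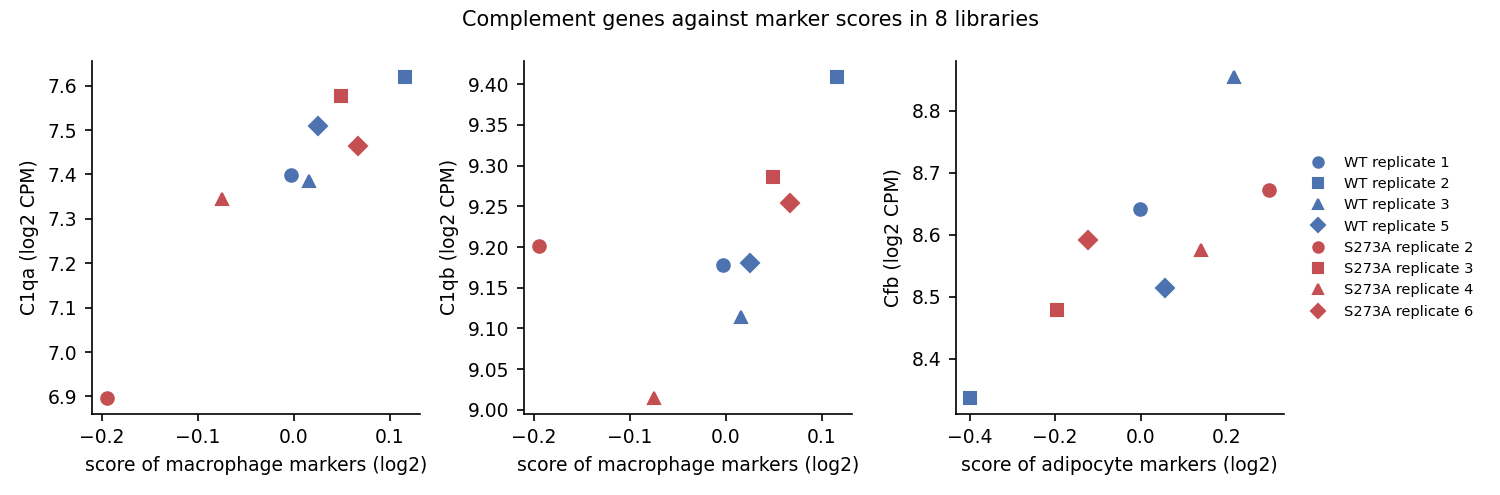
Log2 CPM of C1qa and C1qb against the macrophage score and of Cfb against the adipocyte score, 1 point per library (blue WT, red S273A). S273A replicate 2 has the lowest score of -0.195 and the lowest C1qa, but a middle level of C1qb.

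Pairs of the 9 genes gave a second family of 36 relations. C1qb and C1qc, neighbours on chromosome 4 whose upstream sequences are printed above, had r = 0.956 and rho = 0.929 (exact permutation p = 0.000446 and 0.00223, adjusted 0.0161 and 0.0402). This was the only pair with an adjusted p under 0.05 for r. Centred within genotype r was again 0.956 (adjusted p = 0.0625, permuted within genotype), and without WT replicate 2 and S273A replicate 4 it was 0.878 (adjusted p = 0.28). In either setting too few orders of the libraries exist for a pair alone among 36 to have an adjusted p under 0.05. C3ar1 and C5ar1 had r = 0.857 and rho = 0.952 (exact permutation p = 0.00863 and 0.00114, adjusted 0.0812 and 0.0402).

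For C1qa over all 8 libraries, r was 0.398 to C1qb and 0.57 to C1qc. Without S273A replicate 2 these were 0.913 and 0.931 (each adjusted exact permutation p = 0.0304). C3ar1 and Cfb had r = -0.869 and rho = -0.81 (exact permutation p = 0.00903 and 0.0218, adjusted 0.0812 and 0.112).

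For 4 of the genes the closest patterns were sought among 12682 other rows (mean log2 CPM 1 or more and a symbol found in the reference table of gene names), by Pearson's r of log2 CPM over the 8 libraries. C1qa was closest to Adgre1 (r = 0.984), which encodes the macrophage surface protein F4/80 and is itself in the macrophage score, then to Clec12a (0.98), a myeloid C-type lectin, and Csnk1g3 (0.975); C1qb came 3047th. Adgre1 showed the same low library as C1qa, at 435.9 CPM in S273A replicate 2 against 612.5 to 771 CPM in the other 7. For C3ar1 the closest were Mzt1 (0.983), Prkacb (0.971) and Manba (0.963), with C5ar1 at rank 82. For C3 they were 4933421O10Rik (0.957), Zfp746 (0.93) and Ndor1 (0.922), and for C4b Cyp2d22 (0.939), A830018L16Rik (0.927) and Rarres1 (0.912). With 8 libraries and this many rows compared, values of this size are given as a description.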

How the data were processed

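Per the labels' protocols, total RNA was depleted of ribosomal RNA, made into cDNA without strand marks, tagmented and read from both ends, 36 bases each. The authors deposited whole-number counts per gene, not normalised, and a column of feature lengths in bases (another quantity, used only for CPM per kilobase). Per the submitters' processing notes, which give no roles, the tools were edgeR 3.3.0, featureCounts 1.5.2, Picard 2.9.2, HISAT2 2.0.5 and bcl2fastq 2.20.0, on mm10. Not given in the sources used here were the annotation version, duplicate removal and the counting of multiply placed reads.

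Counts were tested with edgeR 4.0.16 in R 4.3.3 (filterByExpr with its defaults, TMM, robust glmQLFit, glmQLFTest, no covariate), with Benjamini-Hochberg adjustment over all tested rows; the fit was checked on simulated data. Alternatives were DESeq2 1.42.0, limma-voom 3.58.1, upper-quartile scaling, no filter, no robust option, a replicate block and leaving out each library. Log2 CPM used a prior count of 2. Positions and transcripts came from GENCODE release M21 on GRCm38.

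The genes and lists were chosen with earlier results of these data known. Named besides the 9 genes were, per list, up to 3 genes of smallest unadjusted p and the 2 highest per kilobase, plus the 3 closest patterns for C1qa, C3, C4b and C3ar1, with Cfd and Gdf3 for context. Groups came from the genotype label and replicate numbers from titles.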

Additional observations from a re-analysis of the deposited data

Results flagged for a closer look

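Among 28 complement genes and 4 ratios, each looked at in both genotypes (64 groups of 4 libraries), 4 groups held a library whose gap to its nearest neighbour took more of the range of its group than Dixon's 95% critical value; chance gives about 1 in 20 groups. Of these, 3 were in S273A replicate 2. The ratio of C1qa to C1qc counts was 0.356 there against 0.4825 to 0.5252 in the other 7 libraries. Cfd was at 497 CPM there against 134.9 to 188.3 CPM in the other S273A libraries. Calr, which encodes calreticulin, a chaperone that binds C1q, was at 320 CPM there against 371.5 to 379.9 CPM. The fourth was WT replicate 2, in which Itgb2 was at 532 CPM against 389.9 to 396.9 CPM in the other WT libraries.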

How the results depend on the processing

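Over 14 alternative settings no complement gene was called, and the smallest adjusted p of the 9 genes was 0.999. C1qa, C3 and C4b kept the sign of their log2 fold change in all 14. Leaving out 1 library in turn, values ran from -0.0641 to 0.0349 (C1qb), -0.0827 to 0.0137 (C1qc), -0.0382 to 0.1916 (C2), -0.1703 to 0.0032 (C3ar1), -0.1501 to 0.045 (C5ar1) and -0.096 to 0.0821 (Cfb). They ran from -0.036 to 0.1529 (Cfp), -0.0153 to 0.0391 (C1s1), -0.0182 to 0.0249 (Serping1), -0.2086 to 0.566 (Cfd), -0.1273 to 0.0576 (Itgb2) and -0.0698 to 0.0124 (Calr). Values also moved without a change of sign for Masp1 (0.2747 to 0.6533), Colec11 (-0.6702 to -0.277), Colec12 (0.0217 to 0.2524), C6 (0.1206 to 0.5921), Cr2 (0.093 to 0.5999), Cd55b (0.0798 to 0.3578), C8g (0.0958 to 0.3208), C1qa (-0.2194 to -0.0172) and Itgam (-0.2522 to -0.0194). Rows called were 0, but 1 (Gdf3) by DESeq2 and 1 (Gdf3) without S273A replicate 4. Only replicate numbers 2 and 3 occur in both genotypes. Same-numbered libraries deviated with r of -0.099 and -0.276, so they were not taken as pairs. With a replicate block, the genotype estimate rested only on the libraries numbered 2 and 3, because every other library had a block of its own. That fit called 0 rows, which says little with so few libraries left to compare. In it C7 turned from -0.0851 to 0.0887. The estimates of C1qa (-0.2657), C2 (0.2446), C4b (0.1805), C3ar1 (-0.1908) and C5ar1 (-0.262) moved farther from 0 in the same fit. Other scalings moved the median of all rows by at most 0.0061.

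Of 36 relations to marker scores, 1 had an adjusted p under 0.05. The count was 0 centred within genotype, 0 without the farthest libraries and 3 without S273A replicate 2 (a setting chosen after seeing the data). For pairs of genes, where all 3 settings were so chosen, 1 became 0, 0 and 4. Centred or without the farthest libraries, too few orders of the libraries exist for 1 relation alone among 36 to pass. The counts of 0 there thus say little. Without the farthest libraries r turned to 0.312 for C2 with the macrophage score and to -0.229 (C2), -0.316 (C3) and -0.681 (C4b) with the adipocyte score. Without S273A replicate 2, r with the macrophage score turned to 0.219 (C2) and 0.309 (C3), and that of C2 with the adipocyte score to -0.554. The cause of these shifts was not tested. With 4 libraries per genotype, the log2 estimate of the median row among 13807 expressed rows carried a 95% confidence interval of 0.2124 to either side.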

Other observations

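Of the marker lists read beside the complement genes, the mesothelial list, genes of the lining that covers the fat pad, was higher in S273A for all 10 members, against 50.7% of all tested rows. The median log2 fold change was 0.30, and 1 member had an edgeR unadjusted p under 0.05 (1.46% of all tested rows did); none had an adjusted p under 0.05. Summed levels were 133.5 to 217.5 CPM in WT and 192.9 to 267.7 CPM in S273A. WT replicate 3 stood lowest, with a score of -0.571, and S273A replicate 4 highest, at 0.446. Every member was likewise lowest in WT replicate 3 and highest in S273A replicate 4. The members thus moved together, and their shared sign is not 10 separate results. Leaving out any 1 library, an alternative chosen after seeing the data, all 10 were again higher, with medians of 0.189 (without WT replicate 3) to 0.419 (without WT replicate 2).

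In 5 further lists the values moved with single libraries. All 6 tested red blood cell markers were higher (median 0.60, 1 at an unadjusted p under 0.05). S273A replicates 4 and 6 were high, with scores of 0.603 and 1.177, while S273A replicates 2 and 3 (-0.466 and -0.314) lay within the WT range; without S273A replicate 6 the median was 0.15. All 4 tested neutrophil markers were higher (median 0.43), but only S273A replicate 6 was high, with a score of 1.267 against -0.347 to -0.011 in the other 7 libraries, and without it 1 was higher and 3 lower. All 8 endothelial markers were higher (median 0.10), and 4 of 8 without WT replicate 2. Of 12 adipocyte markers 11 were higher (median 0.07), and 3 without WT replicate 2 or 4 without S273A replicate 2. Of 18 macrophage markers 15 were lower (median -0.07), and 10 without WT replicate 2 or without S273A replicate 4.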
